A study of Homo sapiens with 8 samples.

Results

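The genes described here are 9 components of the inflammasome and of pyroptosis, taken as a named list: the inflammatory caspases CASP1 and CASP4, the sensors NLRP1 and CARD8, their inhibitor DPP9, the adaptor PYCARD, the pore formers GSDMD and GSDME, and the cytokine IL18. All 9 were found among the 19892 genes of the deposited table, and all 9 passed the filter on low counts in each comparison. They were measured in MDA-MB-231, a human breast cancer cell line of the triple-negative kind, which had received siRNA against ADAR1 or control siRNA. ADAR1, encoded by ADAR, edits adenosines of double-stranded RNA to inosines and is itself induced by interferon. Input libraries, made from RNA fragments of intermediate size, stood for RNA, and Ribo-seq libraries, made from footprint-sized fragments, stood for ribosome occupancy. Each of the 4 groups (ADAR1 siRNA Input, control siRNA Input, ADAR1 siRNA Ribo-seq and control siRNA Ribo-seq) held 2 libraries, 8 in all. The sources used here name neither the siRNA sequence nor the hours between transfection and harvest. The labels do not state whether the 2 libraries of a group came from different cultures, and the p-values below reflect library-to-library spread that may be technical.

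Inflammasomes are protein assemblies that switch on caspase 1 when a sensor detects infection or cell damage. NLRP1 and CARD8 are sensors of this kind; each cuts itself into parts that stay together, and DPP9 binds them and holds the active part in check. The adaptor ASC, encoded by PYCARD, links many sensors to caspase 1, whereas caspase 4 is switched on directly by bacterial lipopolysaccharide in the cytosol. Active caspases 1 and 4 cut gasdermin D, whose released part forms pores in the plasma membrane, and caspase 1 also matures interleukin 18. Gasdermin E is cut by caspase 3 and links apoptosis to the same kind of lytic death. The pathway is best known from macrophages and epithelia, and parts of it, CASP1 among them, are inducible by interferon.

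Whole-library facts that bear on these genes were few. Input libraries held 15732757 to 17153716 estimated counts and Ribo-seq libraries 10492223 to 14875465. ADAR itself stood at 13.7% and 28.3% of the control mean in replicates 1 and 2 of ADAR1 siRNA Input, and at 7.87% and 42.7% in ADAR1 siRNA Ribo-seq, so less ADAR remained in replicate 1 than in replicate 2. The cell line markers VIM, CD44, EGFR, CAV1, MSN and AXL were abundant, with a summed level of 7572 and 8109 TPM in ADAR1 siRNA Input and 7495 and 7466 TPM in control siRNA Input. In Ribo-seq they summed to 3720 and 4711 TPM with ADAR1 siRNA and 4425 and 4708 TPM with control siRNA, so that ADAR1 siRNA Ribo-seq replicate 1 stood apart. VIM, the gene of the filament protein vimentin, was at 831 and 1473 TPM in ADAR1 siRNA Ribo-seq. In control siRNA Ribo-seq it was at 1882 and 2275 TPM (log2 -0.78 ± 0.20, edgeR adjusted p = 0.0583). Footprint fold changes lay above 0 for 4 of the 6 markers and below 0 for 2. CAV1 was called higher (log2 0.67 ± 0.14, edgeR adjusted p = 0.0422). The part of these differences in the results was not tested. Footprint differences of CASP1, NLRP1, GSDME, GSDMD and IL18 are given below without ADAR1 siRNA Ribo-seq replicate 1. ESR1 and PGR, the hormone receptor genes absent from triple-negative cells, stayed under 1 TPM in every library, while ERBB2 was present at 29.5 and 32.4 TPM in ADAR1 siRNA Input and 31.1 and 35.5 TPM in control siRNA Input. The 10 markers of myeloid and lymphoid cells summed to 6.41 to 8.57 TPM in ADAR1 siRNA Input and 7.92 to 9.57 TPM in control siRNA Input, and to 5.89 to 8.57 TPM in ADAR1 siRNA Ribo-seq and 9.003 to 10.02 TPM in control siRNA Ribo-seq. Of these 10 markers 6 stayed under 1 TPM in every library, the leukocyte gene PTPRC among them, and none was listed at 0 in all 8. The others, CSF1R, LYZ, CD14 and FCER1G, reached at most 3.9, 4.99, 4.44 and 2.62 TPM in a library. The part of these markers in the results was not tested.

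Promoter windows from RefSeq (GRCh38.p14, 250 bases before and 50 bases from each listed start) were searched for 5 of the 9 genes in 13 windows: CARD8, CASP4, DPP9, GSDME and PYCARD. No window of CASP1, NLRP1, GSDMD or IL18 was searched, so nothing is said here about motifs at their starts. Each window was searched on both strands for the core of the interferon-stimulated response element, for the gamma-activated site TTCNNNGAA and for an NF-kB site. Of 35116 windows in the table, 3.57%, 7.66% and 0.56% held these motifs. CARD8 has 5 listed starts in groups that lie apart; 2 overlapping windows held the interferon-stimulated core and another 2 held the gamma-activated site. The 8 windows of the other 4 genes held none of the 3 motifs. The sequences shown are a CARD8 window of each kind, because the deposited TPM of CARD8 varied with the length assigned to it, and that of CASP4, the most abundant caspase. Capitals mark the motif, which lies 66 bases before the start in the first CARD8 window, on the reverse strand, and 18 bases before it in the second.
CARD8 (minus strand of chr19:48249779-48250078): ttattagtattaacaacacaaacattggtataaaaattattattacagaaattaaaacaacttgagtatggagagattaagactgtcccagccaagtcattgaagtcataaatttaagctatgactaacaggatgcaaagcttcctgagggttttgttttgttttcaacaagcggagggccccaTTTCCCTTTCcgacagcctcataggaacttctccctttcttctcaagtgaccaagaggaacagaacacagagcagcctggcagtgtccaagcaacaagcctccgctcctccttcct
CARD8 (minus strand of chr19:48255863-48256162): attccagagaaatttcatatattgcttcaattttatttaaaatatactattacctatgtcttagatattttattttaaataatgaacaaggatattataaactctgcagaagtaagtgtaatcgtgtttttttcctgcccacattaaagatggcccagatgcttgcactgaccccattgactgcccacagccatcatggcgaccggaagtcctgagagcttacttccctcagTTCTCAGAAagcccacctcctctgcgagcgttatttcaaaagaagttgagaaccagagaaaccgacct
CASP4 (minus strand of chr11:104968525-104968824): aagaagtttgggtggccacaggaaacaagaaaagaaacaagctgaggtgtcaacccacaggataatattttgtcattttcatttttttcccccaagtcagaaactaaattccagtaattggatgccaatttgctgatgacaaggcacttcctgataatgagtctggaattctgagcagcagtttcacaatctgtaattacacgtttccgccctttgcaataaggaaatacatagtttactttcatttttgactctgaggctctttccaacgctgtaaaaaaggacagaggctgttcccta
A match to these letters is a description of the window and not evidence that a factor binds there.

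Levels can be compared between genes as TPM, which is per transcript length. In control siRNA Input, DPP9 (134.0 ± 1.03 TPM, mean ± SD, n = 2 here and below) and CASP4 (94.0 ± 1.68) stood highest, then GSDME (55.8 ± 0.983), IL18 (49.0 ± 2.46), CARD8 (38.4 ± 6.50) and GSDMD (32.5 ± 5.01). CASP1 (9.51 ± 1.01), NLRP1 (9.19 ± 0.221) and PYCARD (6.999 ± 2.33) formed the low end. CARD8 overlapped with GSDMD, and CASP1 with NLRP1; other neighbours in this order did not overlap. Footprint levels were ordered differently. In control siRNA Ribo-seq, CASP4 (30.0 ± 2.14 TPM) and IL18 (26.7 ± 2.04) came first. GSDMD (22.4 ± 1.94), GSDME (22.4 ± 2.80), CARD8 (22.2 ± 2.94), PYCARD (20.3 ± 0.809) and DPP9 (19.5 ± 1.15) followed in a run in which each overlapped with its neighbour. CASP1 (4.17 ± 0.141) and NLRP1 (1.58 ± 0.0651) were far below. Footprint levels of caspase 4 and both gasdermins were thus several times that of CASP1.

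The genes lie on 6 chromosomes (RefSeq gene table for GRCh38.p14, 1-based). CASP1 (NCBI gene 834; chromosome 11, 105025443 to 105036686) and CASP4 (gene 837; chromosome 11, 104942866 to 104968574) belong to 1 caspase cluster, and IL18 (gene 3606; 112143260 to 112164094) lies farther along chromosome 11. CARD8 (gene 22900; 48203148 to 48255946) and DPP9 (gene 91039; 4675227 to 4723842) are on chromosome 19. NLRP1 (gene 22861) is on chromosome 17 from 5501396 to 5584509, PYCARD (gene 29108) on chromosome 16 from 31201486 to 31202760, GSDME (gene 1687) on chromosome 7 from 24698355 to 24795539, and GSDMD (gene 79792) on chromosome 8 from 143553387 to 143563062.

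The ratio of the levels, the authors' deposited translational efficiency (footprint TPM over Input TPM), separated PYCARD from the rest. Its control mean was 3.09, higher than in 96.3% of 10566 genes with at least 1 TPM in both control assays, whose median was 0.415. DPP9 (0.145, above 13.5% of genes) and NLRP1 (0.172, above 17.8%) were at the low end. The other 6 genes had control means from 0.320 for CASP4 to 0.694 for GSDMD, above 39.3% to 69.8% of genes. The PYCARD ratio rests on 26 and 45 counts in control siRNA Input.

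**Figure D1:**
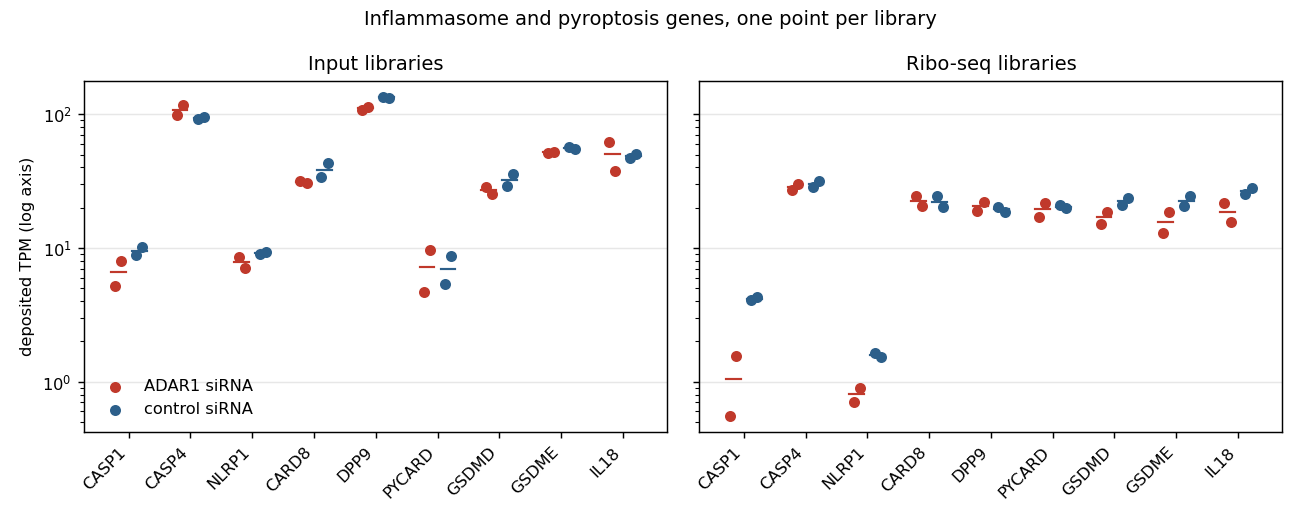
Deposited TPM (log axis) of the 9 genes in Input (left) and Ribo-seq libraries (right), with ADAR1 siRNA in red left of control siRNA in blue; points are libraries and short lines are means of 2. CASP1 and NLRP1 footprints lie lower with ADAR1 siRNA in both libraries, and IL18 RNA lies on either side of its controls.

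Differences were tested with edgeR (quasi-likelihood, two-sided, Benjamini-Hochberg adjusted over all genes, threshold 0.05) in 3 ways: RNA over the 4 Input libraries, footprints over the 4 Ribo-seq libraries, and, for translational efficiency, the interaction of assay and siRNA over all 8. With 2 libraries against 2 an exact permutation test of a single gene cannot give a two-sided p under 0.333. Where 1 library was left out, its group held a single library, so the text below gives only the effect size of each gene. ADAR, the siRNA target, did not pass in RNA (log2 -2.26 ± 0.32, edgeR adjusted p = 0.0527). It passed in footprints (-2.04 ± 0.47, edgeR adjusted p = 0.0485) and not in translational efficiency (0.25 ± 0.68, adjusted p = 0.867). CASP1 footprints, which fell, were the only call among the 9 genes. In RNA 0 of the 9 were called, where 0.253% of 12644 genes were (0.0791% higher and 0.174% lower); 1 of the 9, DPP9, had an unadjusted p under 0.05 by edgeR, against 25.3% of all genes. In footprints 1 of the 9 was called lower and 0 higher, against 1.67% and 1.88% of 12000 genes and 3.54% in either direction, and 3 of the 9 (CASP1, NLRP1 and GSDME) had an unadjusted p under 0.05, against 24% of genes. In translational efficiency 0 of the 9 were called, where 0.0463% of 12953 genes were (0.0154% higher and 0.0309% lower); CASP1, NLRP1 and DPP9 had an unadjusted p under 0.05, 3 of 9 against 22.7% of genes. DESeq2 called none of the 7 genes with an adjusted p in RNA, none of 7 in footprints and none of 6 in translational efficiency, and limma on log2(TPM + 1) none of the 9 in any.

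The median log2 fold change of the 9 genes was -0.11 in RNA, -0.32 in footprints and -0.15 in translational efficiency, against 0.00375, 0.05 and 0.09 over all genes tested. The siRNA groups did not overlap for 6 of the 9 in RNA, 6 in footprints and 6 in translational efficiency, against 57.8%, 56.2% and 50.5% of all genes, so these counts are near the background. Of those 6, 5 lay lower and 1 higher in each comparison. Over all genes 30.7% lay lower and 27% higher in RNA, 27.3% and 28.9% in footprints, and 27% and 23.5% in translational efficiency. Calls over all genes were 10 higher and 22 lower in RNA, which became 5 and 6 with upper-quartile scaling, and 225 higher and 200 lower in footprints, which became 311 and 176 with that scaling and 391 and 587 with DESeq2.

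**Figure D2:**
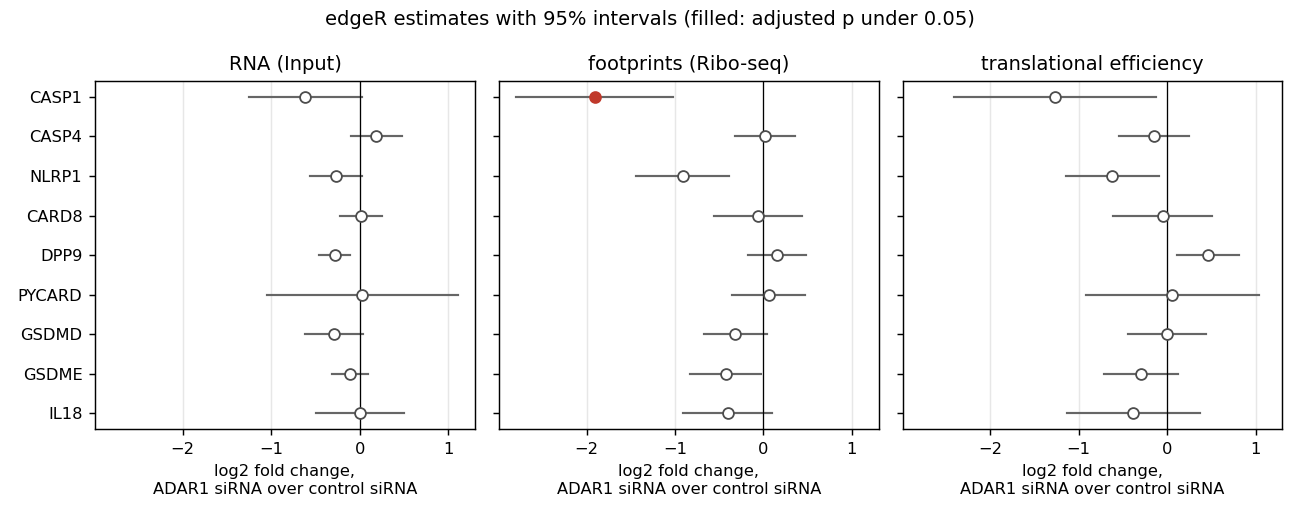
Fold change (log2, ADAR1 siRNA over control siRNA) of the 9 genes in RNA, footprints and translational efficiency, as edgeR estimates with 95% intervals; filled points passed the adjusted threshold. CASP1 footprints, at -1.91, are the only filled point.

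Among the sensors, NLRP1 footprints lay lower in both ADAR1 siRNA libraries, but the difference just missed the threshold. Its footprint level was 0.709 and 0.896 TPM with ADAR1 siRNA, against 1.63 and 1.54 TPM with control siRNA, on 70 and 84 counts against 123 and 101. In bulk samples such as these, fewer cells that express a gene and less RNA per cell cannot be told apart. Both ADAR1 siRNA libraries lay below both controls, at 44.8% and 56.7% of the control mean. The log2 fold change was -0.91 ± 0.24 (SE; 95% interval -1.44 to -0.39; edgeR adjusted p = 0.0602). It was -0.82 without ADAR1 siRNA Ribo-seq replicate 1 and -1.06 without replicate 2, and lay between these values without a control siRNA Ribo-seq library. In a fit on all 8 libraries it was -0.89 and passed (edgeR adjusted p = 0.0128). Over the 9 alternative settings that gave an adjusted p, this fit included, it ranged from -0.94 to -0.52 and passed in 3. NLRP1 RNA was 8.60 and 7.07 TPM in ADAR1 siRNA Input, against 9.03 and 9.35 TPM in control siRNA Input, again without overlap (log2 -0.27 ± 0.12, edgeR adjusted p = 0.229). With 1 library left out, the RNA difference ranged from -0.38 to -0.17. Its translational efficiency was 0.0824 and 0.127 with ADAR1 siRNA, against 0.180 and 0.164 with control siRNA (log2 -0.62 ± 0.24, 95% interval -1.15 to -0.09, edgeR adjusted p = 0.156).

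CARD8, the other sensor of this kind, showed no difference of that size. Counts in Input were 636 and 575 with ADAR1 siRNA, against 553 and 619 with control siRNA, and the groups overlapped (log2 0.01 ± 0.10, 95% interval -0.23 to 0.26, edgeR adjusted p = 0.942). Footprint counts were 221 and 171 with ADAR1 siRNA, against 185 and 133 with control siRNA (log2 -0.06 ± 0.22, 95% interval -0.56 to 0.43, edgeR adjusted p = 0.896). TPM gave another picture of its RNA: 31.7 and 30.4 TPM in ADAR1 siRNA Input lay below 33.8 and 43.0 TPM in control siRNA Input, and limma on log2(TPM + 1) put the difference at -0.29 (adjusted p = 0.243). The transcript length that counts and TPM imply was 119% and 104% of its mean in ADAR1 siRNA Input replicates 1 and 2, against 97.8% and 79.8% in control siRNA Input. In Ribo-seq it was 94.3% and 93.3% with ADAR1 siRNA, against 105% and 107% with control siRNA. For the other 8 genes it stayed between 96.5% and 103.3% in Input and between 97.5% and 103.4% in Ribo-seq. The sources used here do not say how lengths were assigned, and the direction of the small CARD8 RNA difference depends on the scale.

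DPP9, the protease that restrains both sensors, lay lower in RNA and not in footprints, with neither difference past the threshold. It stood at 107.7 and 114.3 TPM in ADAR1 siRNA Input, against 134.7 and 133.2 TPM in control siRNA Input, with no overlap. The RNA log2 fold change was -0.28 ± 0.07 (95% interval -0.46 to -0.11), the smallest p of the 9 in RNA, yet it did not pass over all genes (edgeR adjusted p = 0.0931). Without ADAR1 siRNA Input replicate 1 it was -0.21 (edgeR adjusted p = 0.000407) and without replicate 2 it was -0.36 (adjusted p = 4.56e-07), and both then passed, whereas it did not pass without a control siRNA Input library (adjusted p = 0.639 and 0.663). Footprints were 18.9 and 22.2 TPM with ADAR1 siRNA, against 20.3 and 18.7 TPM with control siRNA (log2 0.15 ± 0.15, edgeR adjusted p = 0.562); per library total, both ADAR1 siRNA libraries lay above both controls. Translational efficiency was 0.176 and 0.194 with ADAR1 siRNA, above 0.151 and 0.140 with control siRNA (log2 0.46 ± 0.16, 95% interval 0.11 to 0.81, edgeR adjusted p = 0.120). DPP8, a related protease that also inhibits NLRP1 and CARD8, had an RNA log2 fold change of 0.30 ± 0.08 (edgeR adjusted p = 0.0962) and a footprint log2 fold change of 0.04 ± 0.20 (adjusted p = 0.920). The DPP8 RNA difference stayed between 0.29 and 0.31 with any 1 Input library left out.

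PYCARD, the adaptor, was not measured precisely in RNA. Its Input counts were 23 and 51 with ADAR1 siRNA, against 26 and 45 with control siRNA, so that the libraries of a group differed more than the groups did (log2 0.03 ± 0.45, 95% interval -1.05 to 1.11, edgeR adjusted p = 0.976). Footprints were better covered, with 233 and 288 counts and 17.2 and 21.9 TPM under ADAR1 siRNA, against 211 and 174 counts and 20.9 and 19.7 TPM under control siRNA. The groups overlapped (log2 0.06 ± 0.19, 95% interval -0.35 to 0.47, edgeR adjusted p = 0.872).

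Of the caspases, CASP1, which activates interleukin 18 and gasdermin D, was the gene called. It stood at 0.553 and 1.55 TPM in ADAR1 siRNA Ribo-seq, against 4.07 and 4.27 TPM in control siRNA Ribo-seq, on 15.1 and 39.8 estimated counts against 84.5 and 75.4. Both ADAR1 siRNA libraries lay far below both controls, at 13.3% and 37.2% of the control mean, and replicate 1, which also held less ADAR, was the lower; the part of that difference was not tested. CASP1 footprints fell 3.76-fold by edgeR (log2 -1.91 ± 0.40, 95% interval -2.80 to -1.02, adjusted p = 0.0428), placing CASP1 among the lowest 0.1% of all genes by fold change. With 1 library left out, the log2 fold change ranged from -2.78 (without ADAR1 siRNA Ribo-seq replicate 2) to -1.39 (without replicate 1). DESeq2 gave CASP1 an unadjusted p of 8.75e-05 and no adjusted p, and limma on log2(TPM + 1) gave -1.38 with an adjusted p of 0.0845. In RNA, CASP1 was 5.16 and 7.95 TPM with ADAR1 siRNA, against 8.80 and 10.2 TPM with control siRNA, without overlap but short of the threshold (log2 -0.62 ± 0.27, edgeR adjusted p = 0.209). Without ADAR1 siRNA Input replicate 2 the RNA difference was -0.99, and without replicate 1 it was -0.32.

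Translational efficiency of CASP1 was 0.107 and 0.195 with ADAR1 siRNA, against 0.463 and 0.418 with control siRNA. The groups were well apart, but the interaction did not pass (log2 -1.27 ± 0.52, 95% interval -2.42 to -0.13, edgeR adjusted p = 0.175). It was -2.09 without ADAR1 siRNA Ribo-seq replicate 2 and -0.77 without replicate 1.

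The CASP1 values carry a doubt about shared reads. CARD16 (NCBI gene 114769; chromosome 11, 105041563 to 105045335) and the pseudogene CARD17P are near-identical copies of the start of CASP1, and CARD16 encodes a CARD-only protein that binds caspase 1. Estimated counts of the 3 genes had decimals in 7 of 8 libraries, and in all 7 their sum was whole within 0.02, so reads had been divided among them. CARD16 and CARD17P together held 16.2 and 12.1 CPM in ADAR1 siRNA Ribo-seq, against 17.2 and 15.7 CPM in control siRNA Ribo-seq (counts scaled to library total), several times the CASP1 value. CARD16 alone did not change detectably in footprints (log2 -0.19 ± 0.21, edgeR adjusted p = 0.638), RNA (0.07 ± 0.34, adjusted p = 0.918) or translational efficiency (-0.23 ± 0.40, adjusted p = 0.777). The 3 genes summed stood at 17.3 and 14.8 CPM in ADAR1 siRNA Ribo-seq, against 24.3 and 22.9 CPM in control siRNA Ribo-seq, still without overlap. That sum, which does not depend on how reads were divided, had a footprint log2 fold change of -0.54 ± 0.19 and did not pass (edgeR adjusted p = 0.120). In RNA the sum differed by -0.37 ± 0.16 (edgeR adjusted p = 0.206) and in translational efficiency by -0.14 ± 0.23 (adjusted p = 0.759). CARD16 and CARD17P held most of the sum in all 4 Ribo-seq libraries, which by construction brings its fold nearer to theirs, while in CPM the sum differed by more than CASP1 alone. How much of the CASP1 difference lies in the division of reads was not tested.

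**Figure D3:**
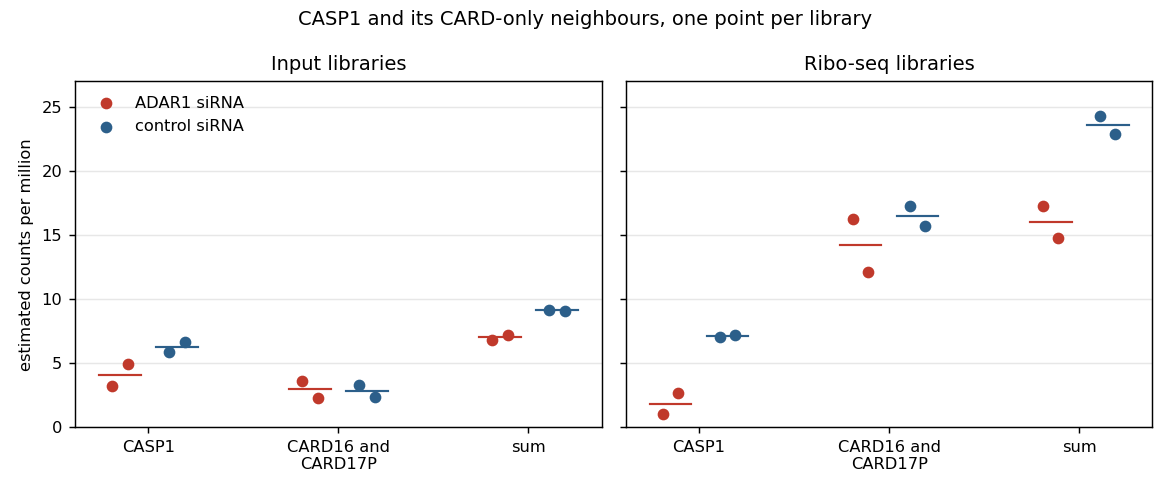
Estimated CPM for CASP1, for CARD16 with CARD17P, and for their sum in Input (left) and Ribo-seq (right), with ADAR1 siRNA in red left of control siRNA in blue; points are libraries and short lines are means of 2. In Ribo-seq the sum is 17.3 and 14.8 with ADAR1 siRNA, below 24.3 and 22.9 with control siRNA.

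**Figure D4:**
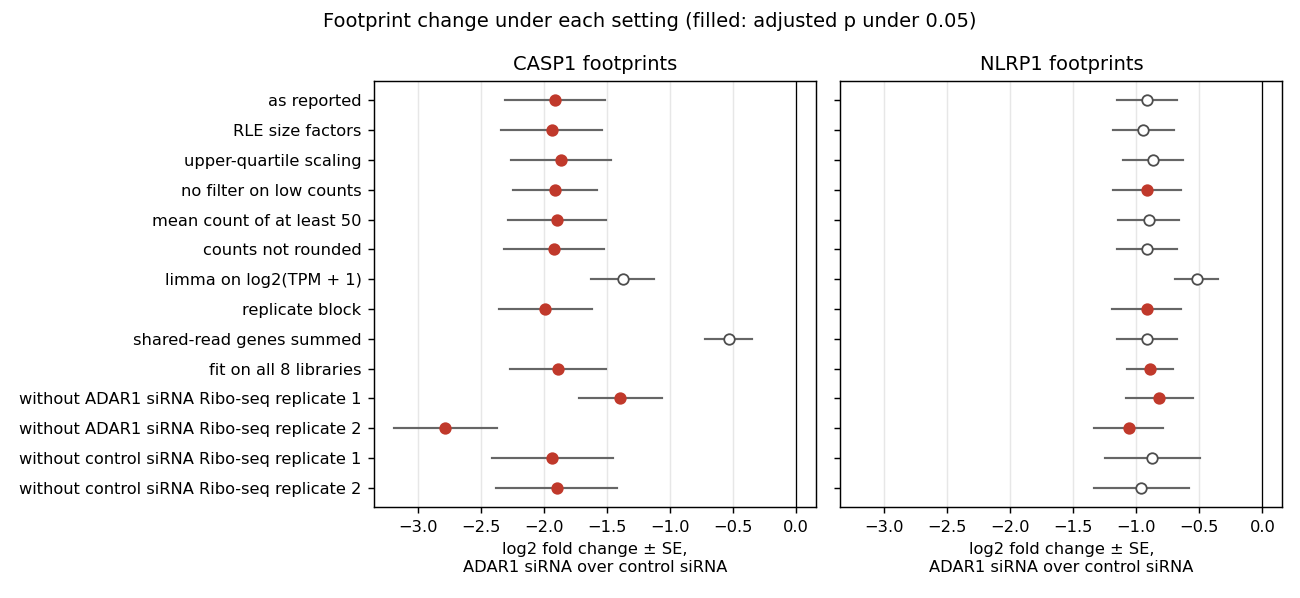
Footprint log2 fold change ± SE (ADAR1 siRNA over control siRNA) of CASP1 and NLRP1 under each processing setting and without each library; filled points passed the adjusted threshold, and DESeq2 is left out because it gave neither gene an adjusted p. CASP1 is open with its shared-read genes summed (-0.54) and with limma on TPM (-1.38). In fits without a library, 1 group holds a single library, whose spread is assumed like that of the others.

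CASP4, the lipopolysaccharide sensor, was not called in any comparison. Footprints were 26.9 and 29.9 TPM with ADAR1 siRNA, against 28.5 and 31.5 TPM with control siRNA, and overlapped (log2 0.01 ± 0.15, 95% interval -0.33 to 0.36, edgeR adjusted p = 0.964). Its RNA was 98.4 and 117.6 TPM in ADAR1 siRNA Input, against 92.8 and 95.1 TPM in control siRNA Input, the one member whose RNA lay higher in both ADAR1 siRNA libraries (log2 0.19 ± 0.12, edgeR adjusted p = 0.365). The RNA difference passed only without ADAR1 siRNA Input replicate 1 (log2 0.34, edgeR adjusted p = 0.000311) and was 0.01 without replicate 2. CASP5, its close copy, was listed at 0 in all Input libraries and held at most 3.12 counts in a Ribo-seq library, so that adding it to CASP4 left the footprint difference at 0.01.

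Footprints of the gasdermins lay lower in both ADAR1 siRNA libraries, with neither gene past the threshold. GSDME footprints were 12.9 and 18.5 TPM with ADAR1 siRNA, against 20.5 and 24.4 TPM with control siRNA (log2 -0.43 ± 0.18, 95% interval -0.83 to -0.03, edgeR adjusted p = 0.185). GSDMD footprints were 15.2 and 18.7 TPM with ADAR1 siRNA, against 21.1 and 23.8 TPM with control siRNA (log2 -0.32 ± 0.16, 95% interval -0.68 to 0.04, edgeR adjusted p = 0.261). In both genes ADAR1 siRNA replicate 1 was the lower of the pair. Without replicate 2, GSDME stood at -0.66 and GSDMD at -0.43, and without replicate 1 they stood at -0.26 and -0.25.

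RNA of GSDME was 51.4 and 52.7 TPM with ADAR1 siRNA, against 56.5 and 55.1 TPM with control siRNA, close but without overlap (log2 -0.11 ± 0.08, 95% interval -0.31 to 0.09, edgeR adjusted p = 0.440). RNA of GSDMD was 28.7 and 25.4 TPM with ADAR1 siRNA, against 28.9 and 36.03 TPM with control siRNA (log2 -0.29 ± 0.14, edgeR adjusted p = 0.237). With 1 library left out, the GSDMD RNA difference ranged from -0.43 to -0.13. Translational efficiency of GSDME was 0.251 and 0.352 with ADAR1 siRNA, against 0.362 and 0.443 with control siRNA (log2 -0.29 ± 0.19, edgeR adjusted p = 0.392), and that of GSDMD overlapped between the groups (log2 -0.00300 ± 0.20, edgeR adjusted p = 1.00).

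IL18, the cytokine that caspase 1 matures, differed more in RNA between the ADAR1 siRNA libraries than between the groups. Its RNA was 62.5 TPM in ADAR1 siRNA Input replicate 1 and 37.9 TPM in replicate 2, on either side of 47.3 and 50.7 TPM in control siRNA Input. The log2 fold change of 0.00542 ± 0.21 (95% interval -0.49 to 0.50, edgeR adjusted p = 0.990) is the mean of these opposite deviations. Without replicate 2 it was 0.29 (edgeR adjusted p = 0.0201) and without replicate 1 it was -0.35 (adjusted p = 0.0151), so that each library alone gave a call in its own direction. Footprints were 21.6 and 15.7 TPM with ADAR1 siRNA, below 25.2 and 28.1 TPM with control siRNA (log2 -0.40 ± 0.23, 95% interval -0.91 to 0.10, edgeR adjusted p = 0.309). The footprint difference was -0.75 without ADAR1 siRNA Ribo-seq replicate 1 and -0.17 without replicate 2. Translational efficiency was 0.346 and 0.414 with ADAR1 siRNA, against 0.534 and 0.554 with control siRNA (log2 -0.38 ± 0.34, edgeR adjusted p = 0.543).

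Around these 9 genes, 8 lists of 81 related genes were examined. In footprints 1 of 50 tested genes rose by edgeR, IL1A, the gene of interleukin 1 alpha, and none fell, against 3.54% of all genes called; 13 of the 50 had an unadjusted p under 0.05, against 24% of all genes. In RNA edgeR and limma called 0 of 53, and DESeq2 called 1 of the 40 with an adjusted p, beside 449 over all genes. By edgeR 8 of the 53 had an unadjusted p under 0.05, against 25.3% of all genes. In translational efficiency edgeR and limma called 0 of 54, and DESeq2 called 2 of the 36 with an adjusted p, beside 982 over all genes. By edgeR 8 of the 54 had an unadjusted p under 0.05, against 22.7% of all genes. These edgeR shares are below or near those over all genes. For footprints DESeq2 called 2 of the 38 with an adjusted p, beside 978 over all genes, and limma none. IL1A had 105 and 48 footprint counts with ADAR1 siRNA, against 8 and 11 with control siRNA (log2 2.63 ± 0.51, edgeR adjusted p = 0.0400), and 280 and 98 Input counts against 16 and 17 (log2 3.48 ± 0.59, adjusted p = 0.0672). The footprint difference was 1.91 to 3.06 with 1 library left out, and the call ended with limma on log2(TPM + 1) (1.49, adjusted p = 0.0845). Without a single ADAR1 siRNA Input library its RNA difference also passed (2.51 without replicate 1, edgeR adjusted p = 3.76e-07, and 4.06 without replicate 2, adjusted p = 4.15e-14), but not without control siRNA Input replicate 1 (adjusted p = 0.309) or replicate 2 (0.278). IL1B, matured by caspase 1 like IL18, had footprint levels of 0.663 and 1.09 TPM with ADAR1 siRNA, against 2.97 and 2.22 TPM with control siRNA (log2 -1.49 ± 0.43, edgeR adjusted p = 0.0785). IL1B RNA overlapped between the groups, since control siRNA Input held 11.5 and 2.48 TPM. Of the 14 genes of the interleukin 1 and 18 system only 5 were tested in RNA and 4 in footprints; the receptor gene IL18RAP was listed at 0 in all 8 libraries.

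Of 13 other inflammasome sensors 8 were tested in RNA and 6 in footprints. The sensors MEFV and NLRP7 were listed at 0 in every library. NLRP3, the most studied inflammasome sensor, stood at 5.69 and 9.51 TPM in ADAR1 siRNA Input and 7.16 and 7.69 TPM in control siRNA Input (log2 0.00944 ± 0.26, edgeR adjusted p = 0.986). NLRP2 had the smallest p of this list in footprints (log2 -0.55 ± 0.24, edgeR adjusted p = 0.198) and in translational efficiency (-0.77 ± 0.26, adjusted p = 0.114), as NLRC5 had in RNA (-0.33 ± 0.16, adjusted p = 0.245). The median of the list was 0.13 in RNA and -0.08 in footprints. Among 17 regulators and CARD-only or PYD-only proteins 11 were tested in both assays (medians 0.09 and 0.04). SERPINB1, an inhibitor of inflammatory caspases, had the smallest p in footprints (log2 -0.45 ± 0.16, edgeR adjusted p = 0.125), and BRCC3, a deubiquitinase that acts on NLRP3, in translational efficiency (-0.42 ± 0.15, adjusted p = 0.136).

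For the noncanonical pathway, 4 of 6 genes were tested (medians 0.11 in RNA and -0.27 in footprints). GBP3, a guanylate-binding protein, had log2 fold changes of 0.35 ± 0.11 in RNA and 0.43 ± 0.16 in footprints (edgeR adjusted p = 0.124 and 0.135), while GBP1 had the smallest p in translational efficiency (-0.49 ± 0.23, adjusted p = 0.246). Of the other gasdermins and membrane rupture genes only NINJ1 was tested, whose product breaks the plasma membrane at the end of lytic death. NINJ1 differed by -0.39 ± 0.15 in RNA, 0.03 ± 0.19 in footprints and 0.45 ± 0.24 in translational efficiency on the log2 scale (edgeR adjusted p = 0.170, 0.935 and 0.306). Neither GSDMB nor GSDMC reached 1 TPM in a library, and GSDMA was listed at 0 in all 8.

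All 10 genes of the apoptotic caspase list were tested, with medians of 0.10 in RNA, -0.27 in footprints and -0.27 in translational efficiency. XIAP, an inhibitor of caspases, had the smallest p in footprints (-0.54 ± 0.19, adjusted p = 0.127) and in translational efficiency (-0.68 ± 0.21, adjusted p = 0.0992). In the necroptosis list 4 of 6 genes were tested (medians -0.16 and -0.11), and MLKL, which forms the necroptotic pore, had log2 fold changes of -0.35 ± 0.10 in RNA and -0.53 ± 0.24 in footprints (edgeR adjusted p = 0.110 and 0.210). CFLAR had the smallest p there in translational efficiency (-0.26 ± 0.18, edgeR adjusted p = 0.427). The Z-nucleic acid sensor gene ZBP1 was listed at 0 in 7 of 8 libraries. Of the membrane repair genes all 10 were tested (medians 0.03 and 0.04), and PDCD6IP, encoding the ESCRT partner ALIX, came nearest to the threshold in footprints (-0.74 ± 0.19, adjusted p = 0.0615) and translational efficiency (-0.82 ± 0.21, adjusted p = 0.0668), with 0.11 ± 0.07 in RNA (adjusted p = 0.323).

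**Figure D5:**
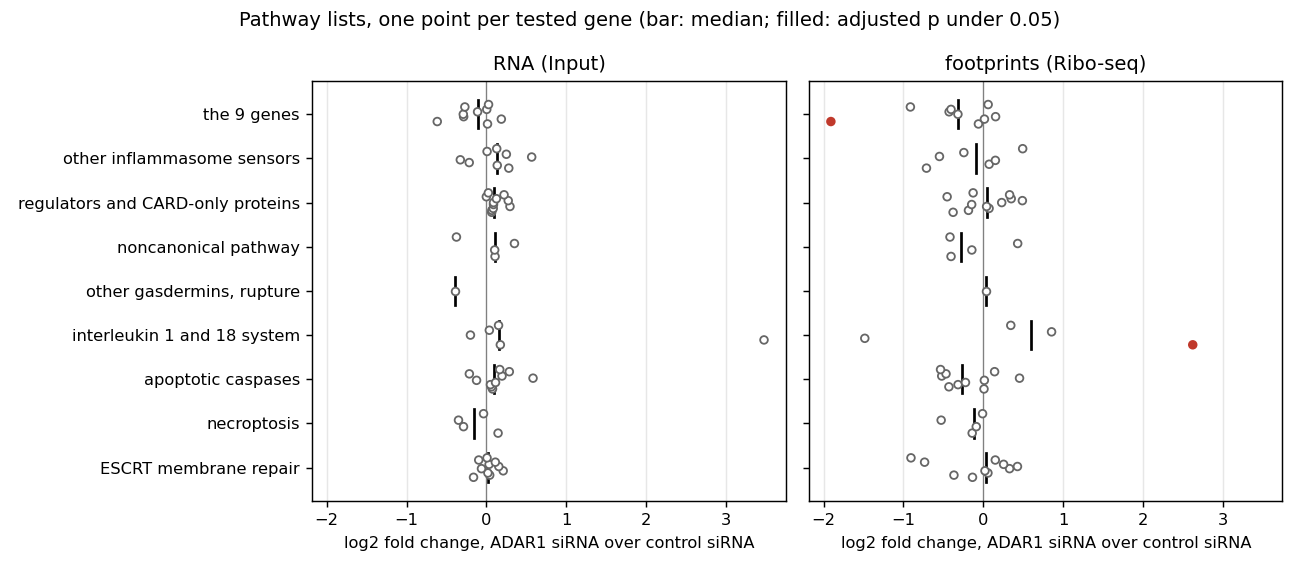
Log2 fold change (ADAR1 siRNA over control siRNA) of each tested gene in the 9 genes described and in 8 related lists, in RNA (left) and footprints (right); bars are list medians and filled points passed the adjusted threshold. CASP1 (-1.91) and IL1A (2.63) are the only filled points.

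Genes that varied most like CASP1 were sought among 9736 genes whose mean count reached 50 in both assays, by the root mean square difference in log2 CPM over the 8 libraries after centring each assay. The nearest was SMARCD3, a chromatin remodelling subunit, at a distance of 0.217 (RNA log2 fold change -0.73, footprints -1.62), against a median distance of 0.848. FAM83A (0.343), MAP3K6 (0.350) and VRK1 (0.367) were among the next. CASP4 had much nearer neighbours, ZNF738 at 0.0342, PEAK1, NDUFS4, SNRPA1 and GSTM3 up to 0.0495, against a median of 0.210. All genes share the libraries and the siRNA groups, so these distances describe likeness in these 8 libraries only.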

How the data were processed

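RNA-seq (Input) and Ribo-seq libraries of MDA-MB-231 cells were analysed, grouped by their titles. Tools listed in the submitters' processing notes are STAR, Bowtie2, featureCounts and cutadapt, with the build GRCh38 (hg38); the sources give no version, setting or strand. The deposited table gives, per library, estimated counts without normalization (87.0% to 90.1% of them whole), TPM as the authors computed it, and translational efficiency, the authors' ratio of footprint to RNA level, which equalled the quotient of the deposited TPM values of 1 siRNA and replicate number in 100.0% of values. All columns were used. Gene numbers were matched to symbols for 19669 of 19892 genes.

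Estimated counts were rounded and tested in R 4.3.3 with edgeR 4.0.16 (TMM scaling, filterByExpr, quasi-likelihood tests, two-sided, Benjamini-Hochberg adjustment over all genes), without a replicate block. The standard error is the log2 fold change divided by the square root of F. Overlap of groups was judged on CPM, and on deposited ratios for translational efficiency. Alternatives used DESeq2 1.42.0 and limma 3.58.1. Intervals cover the spread between libraries; the number of libraries limits precision. No replicate pair agreed within sampling noise. The mean chi-square per gene was 16.2 in ADAR1 siRNA Input and 31.2 in ADAR1 siRNA Ribo-seq. It was 1.89 in control siRNA Input and 6.81 in control siRNA Ribo-seq. All 8 libraries were kept.

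The members, lists and tests were chosen with earlier results of these data known. Genes named are the 9 members, ADAR, genes that can share reads with a member, the genes past the threshold or else of smallest p in each list, and genes among the 5 nearest to CASP1 and to CASP4; NLRP3, IL1B, the genes listed at 0, GSDMB, GSDMC and the marker genes were named after their values were seen. A few genes that this rule names are not reported here.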

Additional observations from a re-analysis of the deposited data

How the results depend on the processing

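The number of genes called moved with the settings. In RNA, 32 genes became 11 with upper-quartile scaling, 449 with DESeq2, 95 without a filter, 73 with a mean count of at least 50, 1 with limma on TPM, 14 in a fit on all 8 libraries and 0 to 5420 when 1 library was left out; the 9 genes, of which none was called, then gave 0 to 5 calls. The 0 calls in RNA came without a control siRNA Input library, where 1055 (replicate 1) and 958 (replicate 2) genes had an unadjusted p under 0.05 by edgeR. In footprints, 425 became 978 with DESeq2, 1693 without a filter, 12 with limma on TPM, 1936 in the fit on all 8 libraries and 77 to 3415 with a library left out. Of the 9 genes, 1 was called; this became 2 without a filter and in the fit on all 8 libraries (CASP1 and NLRP1), 0 with DESeq2, limma on TPM or shared-read genes summed, and 1 to 4 with a library left out. In translational efficiency, 6 became 982 with DESeq2, 854 without a filter, 2 with a mean count of at least 50, 3 with limma on TPM and 0 to 2252 with a library left out, where the 9 genes gave 0 to 1 calls. The 0 calls in efficiency came without an ADAR1 siRNA Input library (2207 genes without replicate 1 and 2683 without replicate 2 had an unadjusted p under 0.05 by edgeR). With a library left out, the lone library of its group was assumed to vary like the others. The highest counts came without an ADAR1 siRNA library: 5420 in RNA without Input replicate 2, 3415 in footprints and 2252 in efficiency without Ribo-seq replicate 2. DESeq2 gave no adjusted p for CASP1 in any comparison, nor for NLRP1 in footprints and translational efficiency, PYCARD and CARD16 in RNA and translational efficiency, or IL1A in any. The cause of these shifts was not tested, beyond the fewer genes or libraries that some settings hold.

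With the replicate number as a block, calls rose to 1095 in RNA, 2102 in footprints and 1169 in translational efficiency, and calls among the 9 to 1 in RNA (DPP9) and 2 in footprints (CASP1, and NLRP1 with an adjusted p of 0.00894). Replicate differences of the siRNA groups correlated at 0.029 in Input and 0.117 in Ribo-seq. The labels do not say whether same-numbered libraries of the siRNA groups share more than a number. Between Ribo-seq and Input they correlated at 0.404 for ADAR1 siRNA and 0.009 for control siRNA. The interaction over 8 libraries has no term for this; with each pair of same-numbered Ribo-seq and Input libraries as a block, it called 0 of the 9 genes (smallest adjusted p 0.0512, for CASP1, by edgeR).

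Several differences near 0 changed sign. On log2(TPM + 1) these were, in RNA, CARD8 (-0.29), PYCARD (-0.00888) and IL18 (-0.00840); in footprints, CASP4 (-0.0766), CARD8 (0.0256) and PYCARD (-0.0629); in translational efficiency, CARD8 (0.31) and PYCARD (-0.0540). With the block, RNA of PYCARD (-0.00189) and IL18 (-0.0223) did, with RLE and DESeq2 the CASP4 footprints (-0.0173 in both), and with upper-quartile scaling GSDMD efficiency (0.0128). Leaving out 1 library gave RNA ranges of -0.0803 to 0.10 for CARD8, -0.64 to 0.47 for PYCARD, -0.35 to 0.29 for IL18 and -0.32 to 0.38 for CARD16. Footprint ranges were -0.0416 to 0.0665 for CASP4, -0.29 to 0.0949 for CARD8, -0.11 to 0.18 for PYCARD and -0.18 to 0.20 for DPP8. Efficiency ranges were -0.30 to 0.16 for CARD8, -0.46 to 0.66 for PYCARD, -0.23 to 0.0760 for GSDMD, -1.16 to 0.94 for ADAR, -0.60 to 0.0735 for CARD16 and -1.55 to 0.0653 for IL1A.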
